A study of Mus musculus with 18 samples.

Results

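The genes described here are those of the cadherins and protocadherins, the calcium-binding adhesion proteins that join cells and synapses, in the hippocampus and cortex of mice dosed with urban particulate matter (UPM). Members were the rows whose symbol is Cdh followed by a number, or starts with Pcdh, except Cdh5, and that had at least 10 counts in 9 or more of the 18 libraries. Of 93 such rows 48 were members, out of 23238 gene symbols in the files. Of the 45 rows that were not members, 2 had no count in any library. Just inside the threshold lay Pcdhb13, with at least 10 counts in 9 libraries, and Pcdhb15, Pcdhb4 and Pcdhgb8, each in 10 libraries. Just outside lay Pcdhga10 and Pcdhgb5, each in 8. The members were 3 type I classical cadherins (Cdh1, Cdh2 and Cdh4), 10 type II classical cadherins, the lipid-anchored Cdh13, the tip-link gene Pcdh15, 4 delta-1 and 5 delta-2 protocadherins, Pcdh20, and 2 alpha, 17 beta and 4 gamma clustered protocadherins.

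Each tissue gave 9 libraries from male C57BL/6 mice that were 7 weeks old when dosing began. In 5 of them, named long-term, UPM (the certified city dust SRM 1648a) had been given through the nose 2 times a week over 3, 8, 12, 16 or 20 weeks. In 3, named short-term, it had been given daily during 3, 5 or 7 days, and 1 was the control, for which the series describes phosphate-buffered saline as the vehicle. No label gives a time for the control. Each library was made from RNA pooled over the mice of 1 group, so it carries no spread between mice, and the times within a class serve as its replicates. Age, the rhythm of dosing and the cumulative dose all differ with exposure class and cannot be told apart from it.

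Cadherins bind the same or a related cadherin on the next cell through repeated extracellular domains. Classical cadherins hold the actin skeleton through catenins, and the type II members are known for marking brain regions, layers and circuits in combinations. Delta protocadherins adhere weakly and signal to actin regulators during axon growth and synapse formation. The alpha and gamma clusters splice many alternative first exons to shared last ones and the beta genes have an exon each, and choice among their promoters means that single neurons carry different sets of them and can tell their own branches from those of other cells.

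Total counts ran from 5434067 to 8967430 per library, and members together held 0.190% to 0.252% of them. In the file headers the columns of 3, 5 and 7 days and 3 weeks were named with letters and those of the control and 8 to 20 weeks with numbers. The share of Rn45s, which encodes the precursor of ribosomal RNA, was 14.8% to 18.6% in the 8 libraries named with letters and 7.75% to 12.9% in the 10 others. Marker genes went with the tissue labels. All 8 hippocampal neuron markers were higher in hippocampus, with a summed level of 361 to 879 CPM, the TMM-scaled count relative to library size, in hippocampus and 128 to 272 CPM in cortex. Of 8 cortical neuron markers 7 were lower in hippocampus (207 to 430 CPM in hippocampus, 506 to 751 CPM in cortex). Striatal neuron markers, of which 7 of 7 tested were lower, summed to 87.9 to 236 CPM in hippocampus and 225 to 1480 CPM in cortex. Drd2 had no count in 9 hippocampal and 8 cortical libraries.

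Hippocampus and cortex were compared over all 18 libraries with exposure time as a factor. Pcdh20 and the delta-2 genes Pcdh19, Pcdh8 and Pcdh17 were higher in hippocampus, together with the type II genes Cdh9 and Cdh8. The delta-1 genes Pcdh7, Pcdh11x and Pcdh9, the delta-2 gene Pcdh10 and 6 type II genes (Cdh6, Cdh18, Cdh7, Cdh22, Cdh12 and Cdh10) were lower, as were Pcdh15, Pcdhac1 and Pcdhb20. edgeR's quasi-likelihood test called 19 of 48 members at a Benjamini-Hochberg adjusted p under 0.05, which was 6 higher and 13 lower. All 48 passed the filter on low counts. Over all 14865 genes tested 16.9% were called, 7.6% higher and 9.26% lower. The members' median log2 fold change was -0.21 and that of all genes -0.0048. In such bulk tissue, fewer cells of a type and less RNA per cell cannot be told apart.

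**Figure D1:**
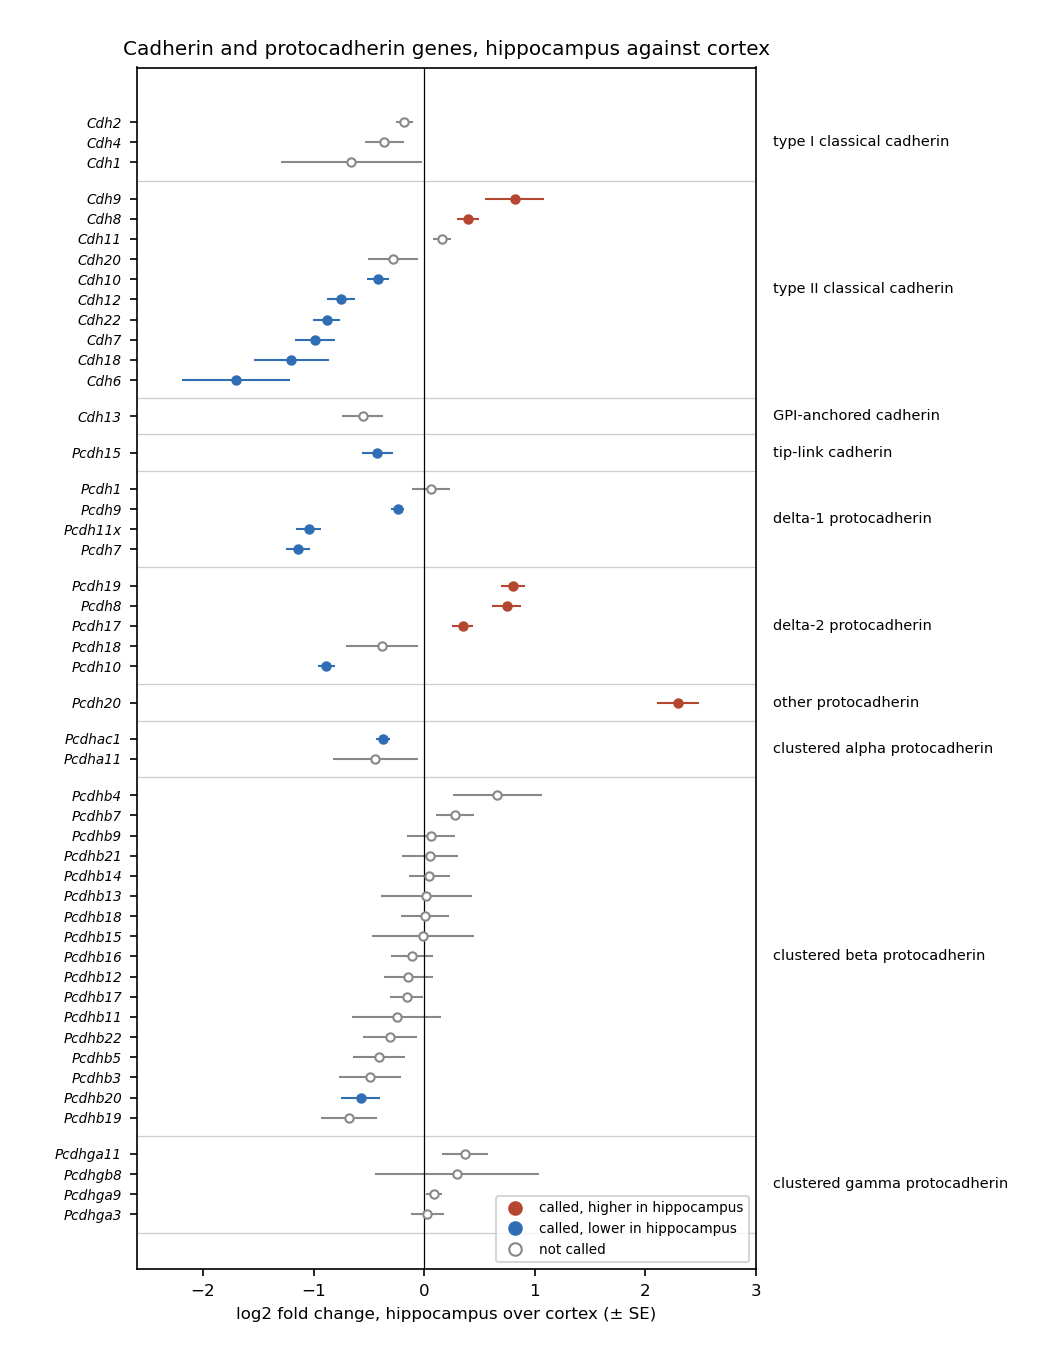
Log2 fold change of hippocampus over cortex for the 48 members, grouped by role, with bars of 1 standard error from edgeR over 9 libraries per tissue. Filled red points were called higher, filled blue points called lower and open points not called. Pcdh20 lies farthest to the right at 2.30 and Cdh6 farthest to the left at -1.70.

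The members with the smallest p in each direction among those with a promoter window were Pcdh20 and Pcdh19 (higher) and Pcdh10 and Pcdh7 (lower). Their promoters are shown to place these called genes. Of the 48 members 18 had a window in the RefSeq table, each 250 bases before to 50 bases after the start, on build GRCm38.p6. Pcdh20 lies at chr14:88471347-88471646 on the minus strand, Pcdh19 at chrX:133688944-133689243 on the minus strand, Pcdh10 at chr3:45378148-45378447 on the plus strand and Pcdh7 at chr5:57717831-57718130 on the plus strand. Sequences run 5′ to 3′ on the strand of the gene, with capitals for the GC box GGGCGG and the CCAAT box CCAAT on either strand.
Pcdh20: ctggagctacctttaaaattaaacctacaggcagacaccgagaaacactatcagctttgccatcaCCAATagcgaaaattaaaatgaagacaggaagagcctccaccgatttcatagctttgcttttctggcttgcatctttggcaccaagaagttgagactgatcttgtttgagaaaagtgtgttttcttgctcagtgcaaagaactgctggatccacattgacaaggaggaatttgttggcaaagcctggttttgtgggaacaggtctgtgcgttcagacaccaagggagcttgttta
Pcdh19: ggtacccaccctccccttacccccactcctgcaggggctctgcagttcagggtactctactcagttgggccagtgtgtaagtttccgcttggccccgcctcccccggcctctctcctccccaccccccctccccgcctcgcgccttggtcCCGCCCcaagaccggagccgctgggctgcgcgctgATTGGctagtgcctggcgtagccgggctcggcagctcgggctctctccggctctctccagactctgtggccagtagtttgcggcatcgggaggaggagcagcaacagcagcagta
Pcdh10: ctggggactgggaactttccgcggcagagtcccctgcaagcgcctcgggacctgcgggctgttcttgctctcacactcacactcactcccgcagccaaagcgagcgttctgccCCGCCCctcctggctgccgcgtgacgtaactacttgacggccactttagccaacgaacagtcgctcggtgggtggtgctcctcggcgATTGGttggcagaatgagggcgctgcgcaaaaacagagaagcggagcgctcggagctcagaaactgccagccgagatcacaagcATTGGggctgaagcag
Pcdh7: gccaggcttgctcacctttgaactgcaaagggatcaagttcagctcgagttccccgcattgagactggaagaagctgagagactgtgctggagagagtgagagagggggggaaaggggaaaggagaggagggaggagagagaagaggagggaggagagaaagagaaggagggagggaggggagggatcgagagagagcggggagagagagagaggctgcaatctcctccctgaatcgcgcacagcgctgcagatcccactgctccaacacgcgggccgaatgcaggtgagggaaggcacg

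GC content was 43.7% in the Pcdh20 window, 67.7% in that of Pcdh19, 62.3% in that of Pcdh10 and 59.3% in that of Pcdh7, against a median of 52.7% over 32817 windows of the same length. The Pcdh20 window held 1 CCAAT box, that of Pcdh19 1 GC box and 1 CCAAT box, that of Pcdh10 1 GC box and 2 CCAAT boxes, and that of Pcdh7 neither. Of all windows 35.6% held the GC box and 37.4% the CCAAT box. None of the 4 windows held the TATA box TATAAA or the E-box CACGTG, which 13.6% and 7.15% of all windows held. Both strands were searched, and no match shared a base with another in these windows. These are matches of letters in a window and not binding sites.

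Pcdh20, a non-clustered protocadherin gene (chromosome 14, 88464743 to 88471396), had 53.6, 76.1 and 160.4 CPM as lowest, median and highest of 9 hippocampal libraries, against 9.31, 16.0 and 33.2 CPM in cortex. Each hippocampal library lay above each cortical one. The log2 fold change was 2.30 ± 0.19 (SE, 9 libraries per tissue, edgeR adjusted p = 3.80e-07). Pcdh19, the X-linked delta-2 gene whose human counterpart is linked to an epilepsy seen mainly in females (133582860 to 133688987), had 103, 148 and 199 CPM in hippocampus and 49.8, 91.1 and 125 CPM in cortex. The ranges overlapped, and hippocampus was higher at 9 of 9 times (0.80 ± 0.11, edgeR adjusted p = 4.85e-05).

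Pcdh8, which encodes the activity-induced arcadlin, had 22.65, 34.05 and 53.6 CPM in hippocampus and 12.3, 19.9 and 32.2 CPM in cortex. Pcdh17, a gene of presynaptic assembly, had 154, 209 and 234 CPM in hippocampus and 107, 156 and 217 CPM in cortex. Both overlapped between the tissues and were higher in hippocampus at 9 of 9 times. Their log2 fold changes were 0.75 ± 0.13 for Pcdh8 and 0.35 ± 0.10 for Pcdh17 (edgeR adjusted p = 5.00e-04 and 0.0187). The Pcdh17 call ended without the libraries of 3 weeks or those of 12 weeks, and its fold change ran from 0.25 to 0.45 over 20 alternatives.

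The fourth called delta-2 gene went the other way. Pcdh10, which encodes the protein OL-protocadherin of axon growth (chromosome 3, 45378398 to 45435623), had 70.9, 81.4 and 100.2 CPM in hippocampus and 118.5, 154 and 189 CPM in cortex. No hippocampal library reached a cortical one, and the log2 fold change was -0.88 ± 0.08 (edgeR adjusted p = 6.65e-07). Pcdh18, whose protein binds the adaptor Dab1, had 0.897 to 6.05 CPM in hippocampus and 2.44 to 5.43 CPM in cortex and was not called (-0.38 ± 0.32, edgeR adjusted p = 0.489).

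Of the 4 delta-1 genes 3 were lower and Pcdh1 was not called (0.07 ± 0.17, edgeR adjusted p = 0.853). Pcdh7, the gene of NF-protocadherin (chromosome 5, 57717967 to 58133230), had 60.2, 73.7 and 123 CPM in hippocampus, against 125, 169.5 and 241 CPM in cortex. Pcdh11x (chromosome X, 120290259 to 120910619) had 14.65, 30.9 and 38.0 CPM in hippocampus, against 51.9, 56.4 and 77.4 CPM in cortex. For both the tissues did not overlap, at -1.14 ± 0.11 for Pcdh7 and -1.04 ± 0.11 for Pcdh11x (edgeR adjusted p = 1.60e-06 and 3.87e-06). Pcdh9, with 250.4, 292 and 314 CPM in hippocampus and 276, 353 and 416 CPM in cortex, overlapped and was lower in hippocampus at 9 of 9 times. Its log2 fold change was -0.24 ± 0.06 (edgeR adjusted p = 0.0115), and the call was lost with total counts alone or without exposure time as a factor.

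Groups of 9 against 9 without overlap were thus found for 4 of 48 members, Pcdh20 higher and Pcdh7, Pcdh11x and Pcdh10 lower. Over all genes tested the tissues did not overlap in 2.02%.

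**Figure D2:**
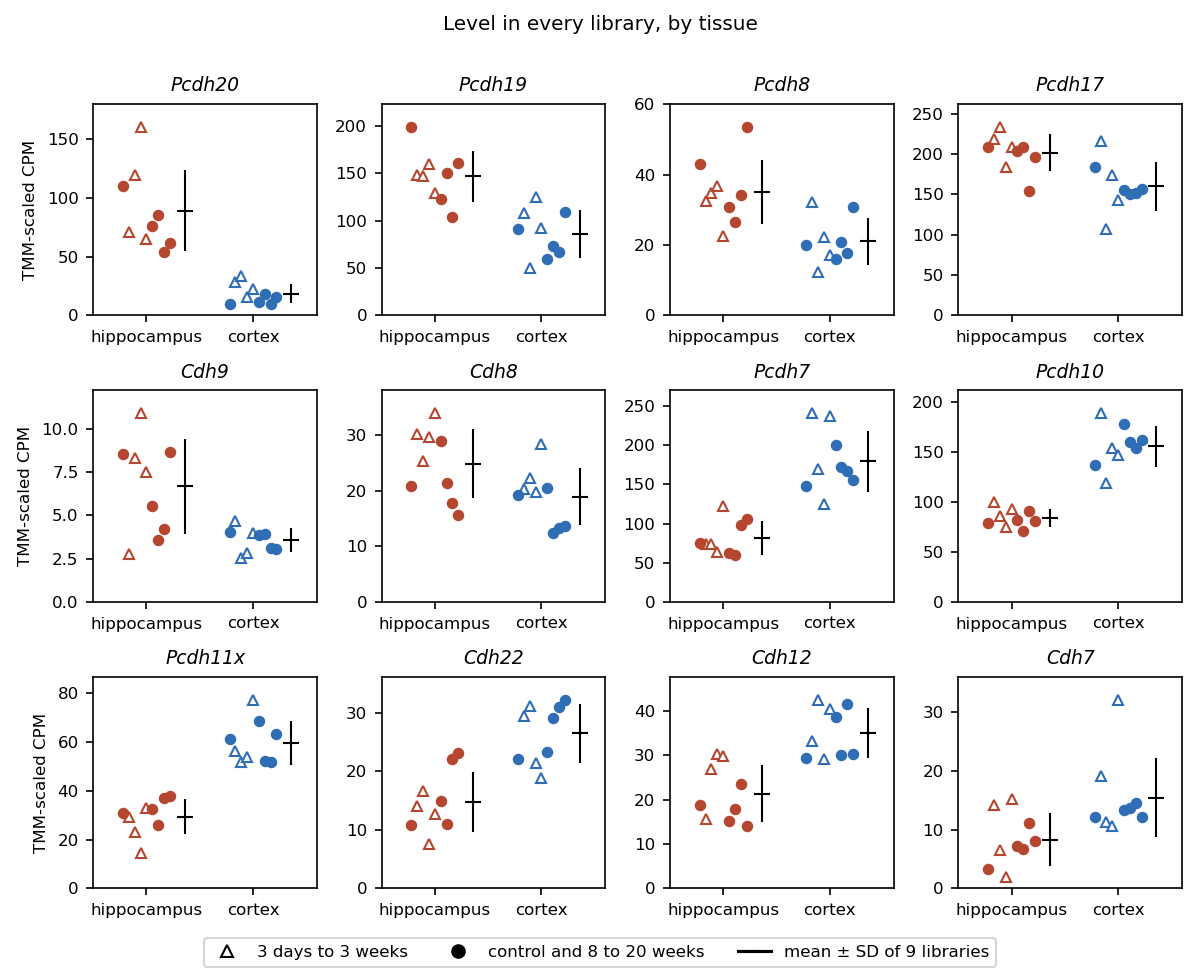
CPM per library of members called between the tissues, hippocampus on the left and cortex on the right of each panel, with mean and SD over 9 libraries. Triangles are libraries of 3 days to 3 weeks and circles those of the control and 8 to 20 weeks. Pcdh20 at 53.6 to 160.4 CPM in hippocampus and 9.31 to 33.2 CPM in cortex shows the widest gap.

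Type II cadherins split between the tissues, with 2 higher, 6 lower and 2 not called of 10. Cdh9, known in mice for the synapses between dentate gyrus and CA3, had 2.78, 7.50 and 10.9 CPM in hippocampus and 2.52, 3.89 and 4.65 CPM in cortex. It was higher in hippocampus at 7 of 9 times (0.82 ± 0.27, edgeR adjusted p = 0.0444). Leaving out the libraries of the control, 5 or 7 days, 3, 8, 16 or 20 weeks ended this call, and its adjusted p ran up to 0.322 over the alternatives.

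Cdh8 had 15.7, 25.4 and 34.0 CPM in hippocampus and 12.5, 19.8 and 28.5 CPM in cortex, an overlap in which hippocampus was higher at 9 of 9 times (0.40 ± 0.10, edgeR adjusted p = 0.00917). Cdh22 had 7.63, 14.1 and 23.1 CPM in hippocampus, against 18.9, 29.1 and 32.3 CPM in cortex. Cdh22 overlapped as well and was lower in hippocampus at 9 of 9 times, at -0.88 ± 0.12 (edgeR adjusted p = 7.13e-05). Its call stood in all 20 alternatives.

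Cdh7 had 1.94, 7.20 and 15.15 CPM in hippocampus and 10.6, 13.3 and 32.2 CPM in cortex, lower in hippocampus at 9 of 9 times (-0.99 ± 0.18, edgeR adjusted p = 0.00102). Cdh12 had 13.95, 18.7 and 30.35 CPM in hippocampus and 29.25, 33.3 and 42.5 CPM in cortex (-0.75 ± 0.12, edgeR adjusted p = 3.45e-04). Only 1 hippocampal library of Cdh12, that of 7 days, was above its cortical partner in time.

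Cdh6 and Cdh18 lay near the detection limit in hippocampus, where 1 library of Cdh6 had no count. Cdh6 had 0, 0.741 and 1.96 CPM in hippocampus and 1.78, 2.83 and 3.81 CPM in cortex, at -1.70 ± 0.49 (edgeR adjusted p = 0.0227). Cdh18 had 0.449, 1.36 and 3.22 CPM in hippocampus and 1.67, 3.89 and 4.90 CPM in cortex, at -1.20 ± 0.34 (edgeR adjusted p = 0.0208). The call of Cdh6 ended without the control, 3-week or 20-week libraries, and that of Cdh18 without the control or 8-week libraries. Their adjusted p ran up to 0.327 and 0.425 over the alternatives.

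Cdh10 was lower by a smaller step (-0.42 ± 0.10, edgeR adjusted p = 0.00648), with 19.0 to 25.7 CPM in hippocampus and 19.7 to 36.4 CPM in cortex. Cdh11, with 51.0 to 85.35 CPM in hippocampus and 44.9 to 93.5 CPM in cortex, was not called (0.16 ± 0.08, edgeR adjusted p = 0.201), and neither was Cdh20 (-0.28 ± 0.23, edgeR adjusted p = 0.471). Chromosome 15 carries 5 of the 10 type II members (Cdh6, Cdh9, Cdh10, Cdh12 and Cdh18), of which Cdh9 was the one higher in hippocampus.

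No type I gene passed the test. Cdh2, the N-cadherin gene of most central synapses, had 73.1, 108 and 149.5 CPM in hippocampus and 75.3, 129.6 and 174 CPM in cortex (-0.18 ± 0.07, edgeR adjusted p = 0.117). Cdh4, the R-cadherin gene, had 12.9, 22.5 and 65.1 CPM in hippocampus and 21.0, 31.6 and 39.0 CPM in cortex. It stood at -0.36 ± 0.18 and Cdh1, the E-cadherin gene, at -0.66 ± 0.63. Cdh13, the gene of a cadherin held by a lipid anchor that also binds adiponectin, fell just short at -0.55 ± 0.19 (edgeR adjusted p = 0.0501), and it was the 1 member added where limma-voom, or edgeR without Rn45s, called 20. Pcdh15, which forms the tip links of hair cells with cadherin 23, had 3.74, 9.85 and 16.4 CPM in hippocampus and 4.77, 13.05 and 19.15 CPM in cortex. Its call was a weak one (-0.42 ± 0.14, edgeR adjusted p = 0.0484), kept in 4 of 20 alternatives, and its level is taken up again below with exposure.

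Of the 19 calls between the tissues, 6 stood in every alternative (Pcdh20, Pcdh19, Pcdh10, Pcdh7, Pcdh11x and Cdh22). The other 13 were lost in 1 or more, and none changed direction. Within the control and 8 to 20 weeks alone 18 members were called, 17 of them among the 19. Within 3 days to 3 weeks, with 4 libraries per tissue, 7 were, and those were the 6 just named and Cdh13. The share of all genes called in such smaller fits is not given here, so their counts are not read as a result about the members. Striatal markers, summed above, reached 1480 CPM in cortex at 5 days. Without 5 days, 8 weeks and 16 weeks, the times at which earlier results on these files set a library apart, 11 of the 19 were called. Their part in the tissue differences was not tested further.

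Counts of the clustered protocadherins depend on how reads were given to symbols. In GENCODE M21 (GRCm38) all 13 annotated alpha genes end in the same last exon (chromosome 18, 37184946 to 37187657), as do all 22 gamma genes (37839903 to 37841873), while the 22 beta genes each have their own end. The library kit reads 3′ ends. Of the alpha counts 96.3% to 99.9% stood under the symbol Pcdhac1 and of the gamma counts 93.5% to 97.5% under Pcdhga9 in the 18 libraries. The values of these symbols are therefore read here as those of the shared ends of each cluster and not of single isoforms. Of the 48 members 7 had a 3′ end within 600 bases that another annotated exon on the same strand overlaps, the 2 alpha and 4 gamma members and Pcdhb21, which runs into Pcdhb22.

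**Figure D3:**
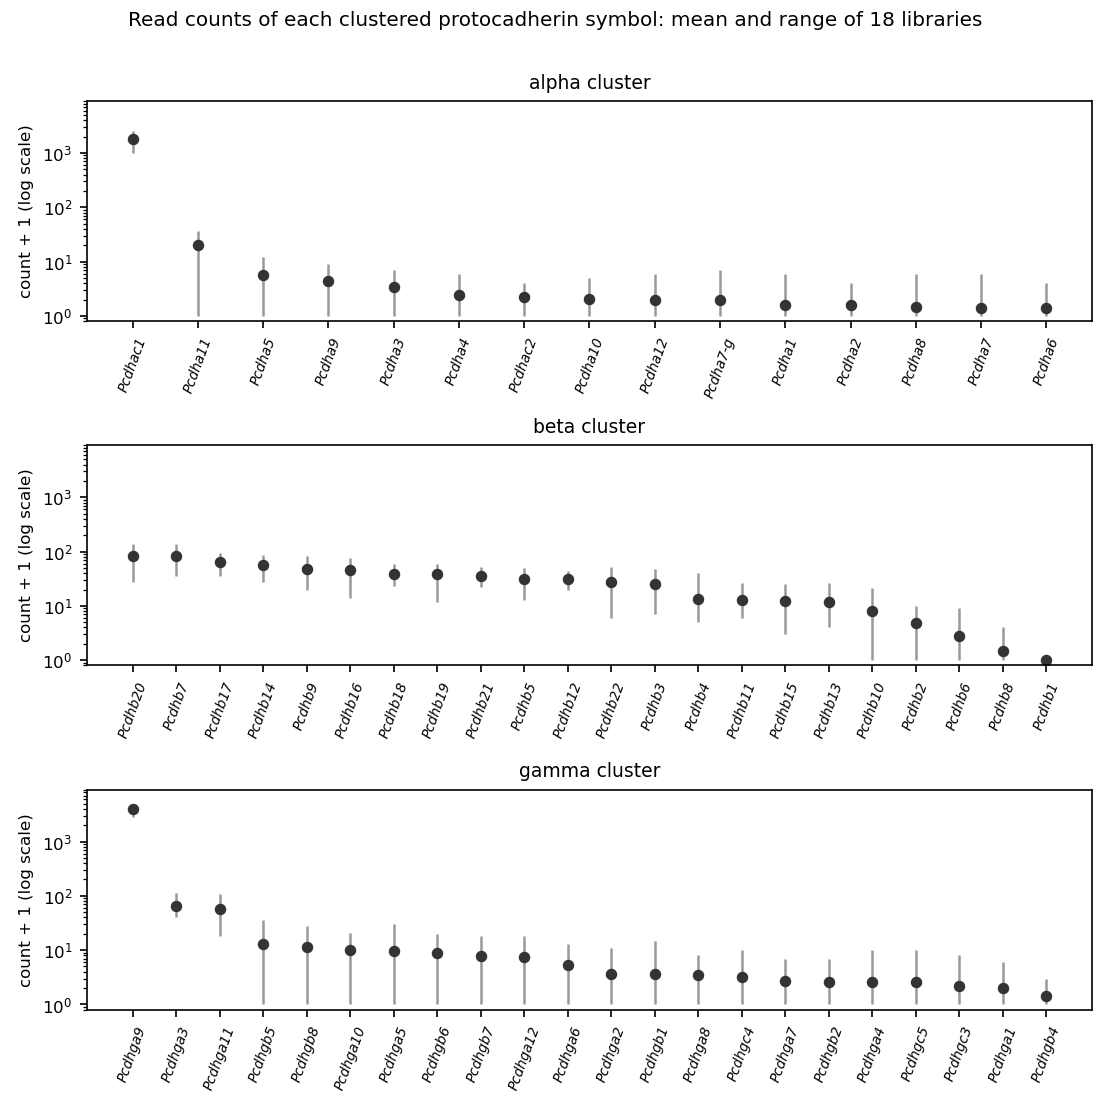
Count plus 1 on a log axis for each symbol of the alpha, beta and gamma clusters, as mean and range over 18 libraries. In the alpha and gamma clusters 1 symbol each, Pcdhac1 and Pcdhga9, holds 93.5% or more of the counts, and in the beta cluster counts are spread over many symbols.

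Pcdhac1 had 179, 200.2 and 238 CPM in hippocampus and 224, 262 and 297 CPM in cortex, lower in hippocampus at 9 of 9 times though with an overlap of ranges (-0.37 ± 0.06, edgeR adjusted p = 5.65e-04). Pcdhga9 had 494, 547 and 586 CPM in hippocampus and 412, 508 and 572 CPM in cortex and was not called (0.09 ± 0.07, edgeR adjusted p = 0.487). The alpha and gamma ends thus differed in their calls, a difference that was not itself tested. Pcdhga3, with 7.25, 7.80 and 10.6 CPM in hippocampus and 5.30, 8.08 and 13.6 CPM in cortex, had a hippocampal range inside the cortical one. The other alpha member, Pcdha11, and the gamma members Pcdhga3, Pcdhga11 and Pcdhgb8 were not called, at -0.44, 0.03, 0.37 and 0.30.

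The 17 beta members had a median log2 fold change of -0.11, and 1 of 17 was called. Pcdhb20 had 4.81, 8.68 and 11.7 CPM in hippocampus and 8.35, 13.8 and 16.5 CPM in cortex, lower in hippocampus at 8 of 9 times (-0.57 ± 0.17, edgeR adjusted p = 0.0315). That call was lost in 9 of 20 alternatives, among them those without the control, 3-day, 3-week, 8-week or 12-week libraries. Pcdhb7, the other beta gene with a large mean count, had 6.44, 11.2 and 20.8 CPM in hippocampus and 6.38, 9.13 and 11.7 CPM in cortex (0.28 ± 0.17, edgeR adjusted p = 0.317). The 16 genes not called ran from -0.68 for Pcdhb19 to 0.66 for Pcdhb4. Summed over the 17 genes, a library held 67.9 to 90.9 CPM in hippocampus and 72.7 to 98.2 CPM in cortex.

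Genes that work with cadherins were read against the 16.9% of all genes called between the tissues. Of 12 catenins and actin linkers tested, Pkp4 was higher in hippocampus (0.43 ± 0.06) and Ctnna2, the alpha-N-catenin gene of neurons, lower (-0.56 ± 0.06), and 10 were not called. Of 14 intracellular partners of protocadherins 7 were higher, among them the focal adhesion kinase relative Ptk2b (0.88 ± 0.11) and the WAVE complex genes Wasf1 (0.56 ± 0.07), Cyfip1 (0.49 ± 0.07) and Abi1 (0.33 ± 0.09). In the same list Marcks (-0.35 ± 0.09), Ptk2 (-0.31 ± 0.08) and the WAVE complex gene Brk1 (-0.29 ± 0.06) were lower. Of 15 other genes of the cadherin superfamily 4 were higher (Dsg2 1.02, Fat4 1.01, Dchs1 0.63 and Clstn2 0.60) and 2 lower (Clstn1 -0.56 and Fat3 -0.31). The 7 sheddase and gamma-secretase genes, 7 regulators of the clusters and 4 nectins tested were not called by edgeR and lay between -0.29 and 0.38.

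The effect of short-term UPM was asked against the control over both tissues, with 6 against 2 libraries. No member passed in edgeR, with 6 of 48 (12.5%) at an unadjusted p under 0.05, where 21.9% of all genes were. DESeq2 called 2 (Pcdh15 and Pcdh9, both lower) and limma-voom 0. Over all genes edgeR called 1.94%, with 1.62% lower. Pcdh15 had 8.15, 6.44 and 3.74 CPM at 3, 5 and 7 days in hippocampus, against 11.7 CPM in the control, and 12.3, 4.77 and 7.22 CPM in cortex, against 18.3 CPM. Both controls lay above all 3 short-term libraries of their tissue, at a log2 fold change of -1.07 ± 0.33 (edgeR adjusted p = 0.0820, from 0.0406 to 0.9996 over the alternatives). The fold change ran from -1.26 to -0.22, the last with the term for column naming. All short-term columns were named with letters and both controls with numbers. It was called without the cortical library of 3 days or that of 3 weeks.

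Pcdh9 had 296, 250.4 and 263 CPM in short-term hippocampus, against 292 CPM in the control, and 312, 276 and 298 CPM in short-term cortex, against 416 CPM. The control lay above the short-term libraries in cortex and between them in hippocampus (-0.31 ± 0.11, edgeR adjusted p = 0.119). Pcdhb9, a beta gene, had 11.3, 3.60 and 7.63 CPM in short-term hippocampus, against 2.69 CPM in the control, and 6.56, 7.55 and 5.15 CPM in short-term cortex, against 3.43 CPM. Its 6 short-term values were all above the control of their tissue, and the change of 1.18 ± 0.43 did not pass (edgeR adjusted p = 0.124).

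Long-term UPM against the control, with 10 against 2 libraries, gave no call among members in edgeR, DESeq2 or limma-voom, and 2 of 48 had an unadjusted p below 0.05. Over all genes 0% were called (185 at an unadjusted p under 0.05). The members with the smallest p were beta genes, Pcdhb9 at 1.06 ± 0.41, Pcdhb16 at 0.71 ± 0.34 and Pcdhb14 at 0.70 ± 0.36. This comparison and the one before share both controls.

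The control libraries and those of 8 to 20 weeks were named alike, and within them 8 exposed libraries were set against 2 controls. Again no member passed in edgeR, DESeq2 or limma-voom (5 at an unadjusted p under 0.05), and 0% of 14465 genes did (676 at an unadjusted p under 0.05). Pcdhb9 had 6.00, 8.25, 6.38 and 6.79 CPM at 8, 12, 16 and 20 weeks in hippocampus, against 2.69 CPM in the control, and 2.91, 8.66, 9.20 and 5.78 CPM in cortex, against 3.43 CPM. Of its 8 exposed values 7 were above the control, with cortex at 8 weeks below (1.15 ± 0.37, edgeR adjusted p = 0.994). Pcdhb16 stood at 0.76 ± 0.26 and Pcdhb14 at 0.66 ± 0.27.

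Long-term and short-term UPM were set against each other over both tissues, with 10 against 6 libraries. Pcdh15, Pcdh9, Pcdha11 and Pcdhb16 were higher after long-term exposure and Pcdh20 was lower. edgeR called these 5 of 48 members and 16.7% of all genes, 9.05% higher and 7.62% lower. The members' share was thus below that of all genes. None of the 5 calls stood in every alternative, and with a term for the naming of the columns no member was called. The share of all genes called with that term is not given here, so the loss is not read as a result about the members. With that term the log2 fold changes were 1.49 ± 0.60 for Pcdha11, 0.63 ± 0.33 for Pcdhb16, 0.27 ± 0.10 for Pcdh9, -0.50 ± 0.33 for Pcdh20 and 0.19 ± 0.31 for Pcdh15. The sign of each fold change was kept and the standard errors were wider. Of the 5 fold changes that of Pcdh15 moved the most.

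Pcdh15 had 6.91, 11.7, 9.85, 12.5 and 16.4 CPM at 3, 8, 12, 16 and 20 weeks in hippocampus and 9.27, 18.7, 13.05, 14.9 and 19.15 CPM in cortex, beside the short-term values above. Its 3-week level was the lowest of the long-term levels in both tissues and lay within the short-term range. The log2 fold change was 0.90 ± 0.23 (edgeR adjusted p = 0.0136), and 0.19 with the naming term (edgeR adjusted p = 0.890, where the alternatives ran from 0.00229 to 0.890). Named by letters, the libraries had 3.74 to 8.15 CPM in hippocampus and 4.77 to 12.3 CPM in cortex. Named by numbers, control included, they had 9.85 to 16.4 CPM and 13.05 to 19.15 CPM. Pcdh15 was the 1 member of 48 whose 2 sets of libraries did not overlap in the same direction in both tissues, where 10.5% of all genes did so. Naming and exposure class cannot be told apart beyond the 3-week libraries.

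Pcdha11, an alpha gene near the detection limit, had 1.47, 2.51, 3.33, 3.49 and 3.21 CPM at 3 to 20 weeks in hippocampus, against 0, 0.758 and 1.79 CPM at 3 to 7 days, and 4.5, 2.64, 2.02, 3.14 and 4.498 CPM in cortex, against 0.955, 1.46 and 1.03 CPM. The classes did not overlap in cortex, and in hippocampus 7 days lay above 3 weeks. It averaged 2.80 ± 0.83 CPM in long-term hippocampus (SD, n = 5) and 0.851 ± 0.901 CPM in short-term hippocampus (n = 3). In cortex it averaged 3.36 ± 1.11 CPM after long-term and 1.15 ± 0.27 CPM after short-term exposure. The fold change was 1.597 ± 0.42 (edgeR adjusted p = 0.0164). The alpha counts outside Pcdhac1 include those of Pcdha11 and so are not separate from its values above. They were 43 to 59 per hippocampal library named with numbers and 1 to 27 per hippocampal library named with letters. In cortex they were 28 to 57 and 24 to 57. The naming sets thus did not overlap in these counts in hippocampus and did in cortex. With the naming term the fold change of Pcdha11 was 1.49 ± 0.60 (edgeR adjusted p = 0.449). That was the 1 of 26 alternatives in which its call was lost.

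Pcdhb16 had 6.18, 6.22, 5.54, 8.91 and 8.64 CPM at 3 to 20 weeks in hippocampus, against 5.55, 2.46 and 3.29 CPM at 3 to 7 days, and 5.96, 7.91, 8.31, 6.17 and 6.94 CPM in cortex, against 5.97, 3.31 and 2.96 CPM. In both tissues 1 short-term library, that of 3 days, reached the lowest long-term level. Its fold change was 0.85 ± 0.22 (edgeR adjusted p = 0.0160). Pcdh9 had 314, 289, 306, 311 and 286 CPM at 3 to 20 weeks in hippocampus and 368, 372, 337, 353 and 363 CPM in cortex, beside the short-term values above. The classes did not overlap in cortex, and in hippocampus 3 days lay within the long-term range. It averaged 301 ± 12.7 CPM in long-term hippocampus and 269.8 ± 23.8 CPM in short-term hippocampus, and 358.5 ± 13.9 CPM in long-term cortex and 295.5 ± 18.3 CPM in short-term cortex. Its small change of 0.22 ± 0.07 (edgeR adjusted p = 0.0430) was lost in 15 of 27 alternatives, 13 of which left out 1 library.

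Pcdh20 had 64.9, 76.1, 85.1, 53.6 and 61.9 CPM at 3 to 20 weeks in hippocampus, against 71.1, 119 and 160.4 CPM at 3 to 7 days, and 22.8, 11.8, 18.15, 9.31 and 15.9 CPM in cortex, against 28.0, 33.2 and 16.0 CPM. In both tissues 1 short-term library lay within the long-term range, that of 3 days in hippocampus and that of 7 days in cortex. It averaged 68.3 ± 12.4 CPM in long-term hippocampus (SD, n = 5) and 117 ± 44.7 CPM in short-term hippocampus (n = 3), with 110.0 CPM in the control. In cortex it averaged 15.6 ± 5.29 CPM after long-term and 25.75 ± 8.85 CPM after short-term exposure, with 10.03 CPM in the control. The control thus lay near the short-term level in hippocampus and near the lowest long-term level in cortex. The fold change was -0.75 ± 0.21 (edgeR adjusted p = 0.0188) and lost its call without the hippocampal library of 7 days, which had 160.4 CPM, or the cortical one of 5 days, which had 33.2 CPM. Hippocampal neuron markers, of which 2 of 8 were lower, summed to 361 to 600 CPM in long-term hippocampus and 597 to 879 CPM in short-term hippocampus. Their part in the Pcdh20 change was not tested.

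**Figure D4:**
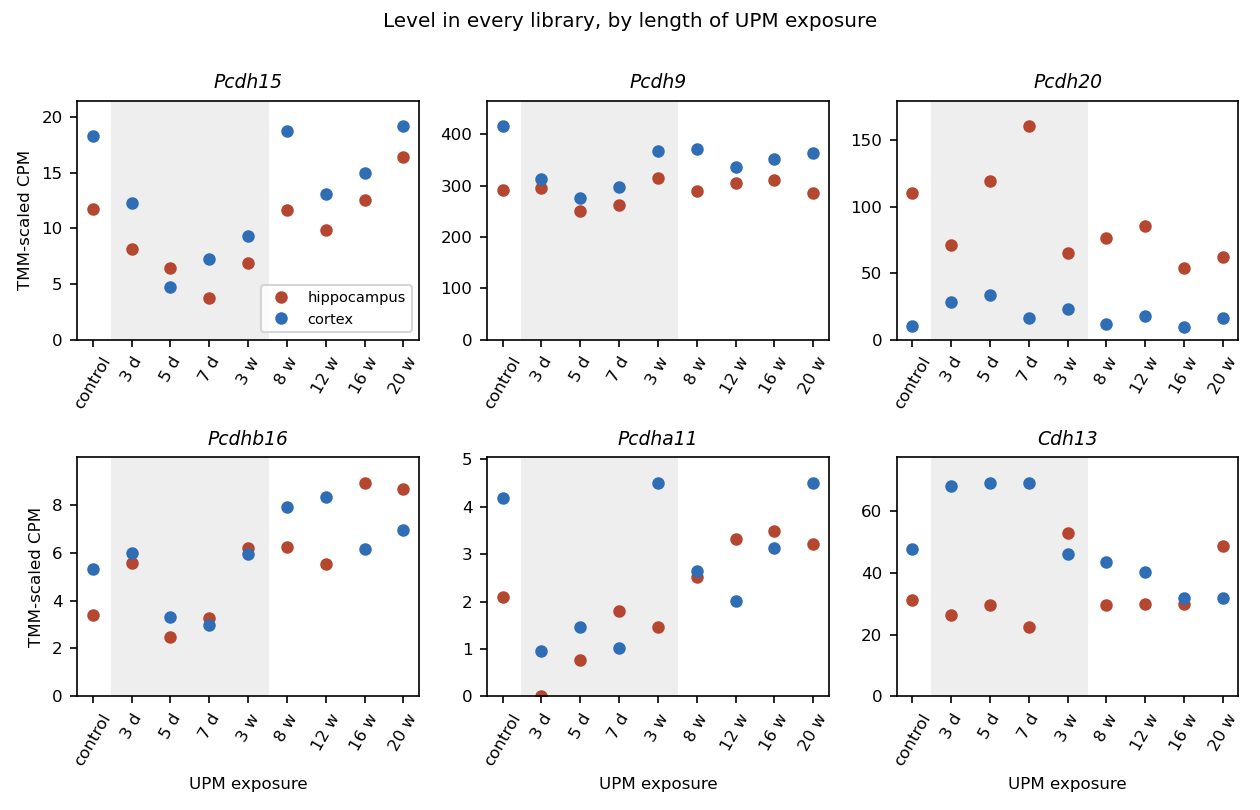
CPM of members by exposure time in each tissue, from the control and 3 days to 20 weeks, 1 library per point. The grey band holds the libraries of 3 days to 3 weeks, whose columns were named with letters. Pcdh15 lies at 3.74 to 12.3 CPM inside the band and at 9.85 to 19.15 CPM outside it.

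Partners of the members were called in the same comparison, in which 16.7% of all genes were. The naming term, with which no member was called, was not read out for these genes. Of 12 catenins and actin linkers Ctnnal1 (1.02 ± 0.24) and Vcl, the vinculin gene (0.60 ± 0.20), were higher after long-term exposure. Of 14 intracellular partners Ptk2 was higher (0.69 ± 0.12), and Ptk2b (-0.46 ± 0.13), Taok2 (-0.40 ± 0.10) and Brk1 (-0.33 ± 0.10) were lower. Celsr3, an atypical cadherin of axon guidance, was higher (1.26 ± 0.26) with Clstn1 (0.34 ± 0.09) of 15 other superfamily genes. Celsr3 was also the 1 gene of the partner lists called for short-term UPM against control (-1.54 ± 0.37, edgeR adjusted p = 0.0380). In that comparison 1.94% of all genes were called, and short-term columns were named with letters and both controls with numbers. Of 8 astrocyte markers 2 were lower and of 8 interneuron markers 3 higher after long-term exposure. Astrocyte markers summed to 4208 to 5300 CPM in long-term hippocampus and 5322 to 5547 CPM in short-term hippocampus, and to 4070 to 4411 CPM in long-term cortex and 4701 to 5291 CPM in short-term cortex. Interneuron markers summed to 667 to 761 CPM in long-term hippocampus and 582 to 685 CPM in short-term hippocampus, and to 773 to 1029 CPM in long-term cortex and 642 to 809 CPM in short-term cortex. Their part in these calls was not tested.

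Within single tissues no member passed for long-term against short-term UPM. In hippocampus edgeR called 0 of 48 (6, or 12.5%, at an unadjusted p under 0.05, against 21.0% of all genes), DESeq2 1 (Pcdh20, lower) and limma-voom 0, and edgeR called 0.23% of all genes, with 0.0394% lower. The smallest p values were those of Pcdh20 (-0.76 ± 0.23, edgeR adjusted p = 0.0985), Pcdh15 (0.93 ± 0.34, and 0.20 with the naming term) and Pcdh11x (0.59 ± 0.22). Without the 3-week library Pcdh15 was called. In cortex edgeR called 0 of 48 (9, or 18.8%, at an unadjusted p under 0.05) and 0% of all genes (3081, or 20.6%, at an unadjusted p under 0.05), DESeq2 2 members (Cdh13 lower, Pcdha11 higher) and limma-voom 0. Without the 3-week library 6 members were called in cortex, Cdh13, Cdh1, Pcdh1 and Pcdh20 lower and Pcdh15 and Pcdha11 higher. In either tissue, leaving out 3 weeks made all long-term columns numbered and all short-term ones lettered. Class and naming cannot be told apart in those fits. The share of all genes called in them is not given here.

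Cdh13 had the smallest p in cortex. After long-term exposure its cortical level was 45.9, 43.6, 40.3, 31.7 and 31.9 CPM at 3, 8, 12, 16 and 20 weeks, against 68.2, 69.0 and 69.1 CPM at 3, 5 and 7 days, with 47.6 CPM in the control. The long-term and short-term libraries did not overlap, and the control lay above the long-term ones (-0.83 ± 0.15, edgeR adjusted p = 0.0767). In hippocampus it had 52.8, 29.7, 29.8, 30.0 and 48.8 CPM at 3 to 20 weeks, against 26.5, 29.6 and 22.6 CPM at 3 to 7 days, with 31.4 CPM in the control. There every long-term value lay above every short-term one, by as little as 29.67 against 29.55 CPM.

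The estimated change of Cdh13 thus had opposite signs, at 0.56 in hippocampus and -0.83 in cortex, and edgeR called neither. The difference, hippocampus minus cortex, was 1.37 ± 0.29 with an edgeR adjusted p of 0.240 over the 16 exposed libraries. Over 25 alternatives it ran from 1.23 to 1.47, with an adjusted p from 0.0111 in DESeq2 to 0.522 in limma-voom. No member passed this test of the difference in edgeR (1 at an unadjusted p under 0.05) or limma-voom, and DESeq2 called Cdh13. In edgeR 0% of all genes passed (1123 at an unadjusted p under 0.05). The share of all genes called by DESeq2 is not given here, so its call is not read as a result about the members. By edgeR's p, Cdh1 followed Cdh13 at 2.24 ± 1.11 and Pcdh1, a delta-1 gene, at 0.84 ± 0.49. Cdh1 had 5.29, 0.416, 1.90, 0.897 and 2.06 CPM in long-term cortex, against 6.68, 3.84 and 9.66 CPM in short-term cortex, so the values overlapped at 3 weeks. Its cortical change was -1.67 ± 0.58, and -0.34 ± 0.68 with the naming term. Pcdh1 had 12.8, 8.05, 7.24, 6.17 and 7.07 CPM in long-term cortex, against 22.2, 8.21 and 10.8 CPM in short-term cortex, which overlapped at 3 weeks too.

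Markers of tissues beside the brain regions varied in the same comparison. All 8 meninges and fibroblast markers had a positive tissue difference, with a median of 2.09, and in cortex all 8 had a negative change, with a median of -1.13. All 8 choroid plexus markers did likewise, with medians of 1.52 and -1.51. No gene of either list was called by edgeR in these fits. Meninges and fibroblast markers summed to 149 to 681 CPM in long-term hippocampus and 77.8 to 264 CPM in short-term hippocampus, and to 78.7 to 199.6 CPM in long-term cortex and 104 to 290.1 CPM in short-term cortex. Choroid plexus markers summed to 564 to 5841 CPM in long-term hippocampus and 176 to 8462 CPM in short-term hippocampus, and to 254.5 to 2667 CPM in long-term cortex and 284.5 to 5539 CPM in short-term cortex. Their part in the values of Cdh13, Cdh1 and Pcdh1 was not tested.

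Exposure of 3 weeks was compared with 3 to 7 days within the libraries named with letters, 2 against 6. No member passed in edgeR, DESeq2 or limma-voom (4 at an unadjusted p under 0.05), and 0% of 14036 genes did in edgeR (606 at an unadjusted p under 0.05; DESeq2 called 8). Pcdh7 had 123 CPM at 3 weeks in hippocampus, against 73.7, 73.3 and 63.3 CPM at 3 to 7 days, and 237 CPM in cortex, against 241, 169.5 and 125 CPM. It stood above all earlier levels in hippocampus and below that of 3 days in cortex (0.60 ± 0.20, edgeR adjusted p = 0.999). Cdh7 (1.11 ± 0.44) and Pcdh11x (0.52 ± 0.22) followed.

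Over 8 to 20 weeks, the change with the length of exposure was fitted as a slope per 10 weeks over 8 libraries. No member passed in edgeR or limma-voom (7, or 14.6%, at an unadjusted p under 0.05, against 9.79% of all genes), DESeq2 called Pcdh8, and edgeR called 0.286% of 13968 genes, with 0.0143% higher. Pcdh8 had 30.65, 26.6, 34.05 and 53.6 CPM at 8, 12, 16 and 20 weeks in hippocampus and 16.0, 20.8, 17.8 and 30.85 CPM in cortex. In each tissue 20 weeks was the highest of the 4, and the slope was 0.69 ± 0.16 (edgeR adjusted p = 0.145). Cdh8 had 28.9, 21.4, 17.8 and 15.7 CPM in hippocampus and 20.5, 12.5, 13.35 and 13.75 CPM in cortex. Each later level was below the one before in hippocampus, and in cortex 12, 16 and 20 weeks lay below 8 weeks (-0.59 ± 0.15, edgeR adjusted p = 0.195). Cdh22 had 14.95, 10.96, 22.1 and 23.1 CPM in hippocampus and 23.3, 29.1, 31.1 and 32.3 CPM in cortex, a slope of 0.53 ± 0.17 (edgeR adjusted p = 0.283). Beside these, 8 of 8 oligodendrocyte markers were called lower along the same slope, at a median of -1.20, with a sum of 6601 CPM at 8 weeks and 1769 CPM at 20 weeks in hippocampus and 5567 and 2714 CPM in cortex. The part of this shift in the slopes of Pcdh8 and Cdh8 was not tested.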

How the data were processed

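Hippocampal and cortical RNA, pooled by group, was made into libraries with an oligo-dT primed 3′ kit and read as single-end 75-base reads, per the labels' protocols. The authors deposited whole-number counts of reads for each symbol, not normalized, on mouse build mm10 with Bowtie2, bedtools and edgeR, per the submitters' processing notes. Tool versions, gene annotation, strand setting and the handling of reads with several hits are not given in the sources used here, so reads of the shared cluster ends and of antisense genes cannot be resolved. Each of 18 files had 23282 rows and 23238 symbols. Repeated symbols were summed, and 27 symbols turned into dates in 2 files were restored.

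Scaling used TMM factors, and genes of low count were dropped by filterByExpr. edgeR 4.0.16 in R 4.3.3 fitted quasi-likelihood models to all genes, with p-values adjusted by Benjamini and Hochberg over all genes tested at a threshold of 0.05. Members were read out of these fits. CPM values are TMM-scaled, and 3 counts equal 0.335 to 0.552 CPM of total counts, a floor that covers counting error only. RNA was pooled and the labels do not tie libraries to mice, so p-values measure only the spread between libraries of different times. Exposure comparisons on both tissues were adjusted for tissue. Members, gene lists, tests and alternatives were chosen with earlier results of these data known. Members were named as the 8 called with the largest change in each direction between tissues, those called (otherwise the 3 with the smallest p) in the other comparisons, and the 2 of each role with the largest mean count. Their levels are given as lowest, median and highest of 9 libraries between tissues and by library in the exposure comparisons, where some with the smallest p are given by fold change alone. Partner genes are named where called, up to 4 per direction. Alternatives were DESeq2 1.42.0, limma-voom (limma 3.58.1), other scalings and filters, fits without Rn45s, blocks, naming terms and left-out libraries. The procedure was tested on simulated data. Positions are from GENCODE M21 (GRCm38, which is mm10) and promoters from RefSeq on GRCm38.p6.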

Additional observations from a re-analysis of the deposited data

Results flagged for a closer look

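In 7 of 62 groups of 5 long-term libraries (31 members named, 2 tissues) 1 library lay apart from the other 4 beyond Dixon's 95% limit. Chance gives about 1 in 20 for independent draws of 1 kind. These groups hold different exposure times and share their libraries, so 7 of 62 is not set against that rate. In cortex the 3-week library was highest for Cdh11 (77.8 CPM, others 48.4 to 56.2), Cdh7 (32.2 CPM, others 12.2 to 14.6) and Pcdh1 (12.8 CPM, others 6.17 to 8.05). That library is the 1 long-term cortical library whose column was named with letters. In hippocampus the 20-week library was highest for Cdh2 (149.5 CPM, others 100.5 to 111) and Cdh4 (65.1 CPM, others 17.1 to 22.5). That library also had the highest sum of meninges and fibroblast markers of the 18, at 681 CPM, whose part was not tested. The 16-week hippocampal library was lowest for Pcdh17 (153.7 CPM, others 196 to 209) and highest for Pcdhb20 (11.7 CPM, others 8.03 to 8.87).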

How the results depend on the processing

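Counts of called members were recomputed under every alternative. Between the tissues, the count of 19 stayed within 1.5 times except within 3 days to 3 weeks, at 7 (2 higher, 5 lower), and without 5 days, 8 weeks and 16 weeks, at 11 (3 and 8), a choice made after the data were seen. Both use fewer libraries. Leaving out 1 time gave 14 to 18. For short-term UPM against control the count of 0 became 2 with DESeq2 and 2 with total counts alone, and 0 to 1 without 1 library. For long-term against short-term UPM the count of 5 became 0 with the term for column naming and was 3 to 7 without 1 library, 3 without hippocampus at 7 days or cortex at 5 days. Within hippocampus DESeq2 gave 1, and 0 to 1 came without 1 library. Within cortex DESeq2 gave 2, no filter 1 and left-out libraries 0 to 6. For the tissue difference and for the slope over weeks DESeq2 gave 1 each. For these the cause was not tested. No direction was reversed. The counts for long-term UPM and for 8 to 20 weeks against control, and for 3 weeks against 3 to 7 days, stayed at 0. With total counts alone the median of all genes moved to -0.18 for short-term UPM against control and to 0.16 for long-term against short-term UPM.

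Libraries of the same time correlated in their deviations at r of -0.14 to 0.17 over 9 pairs and those of different times at -0.18 to 0.18 over 32, so times were not treated as pairs in the exposure comparisons. Without exposure time as a block the tissue count was 16. With a replicate block for exposure time 5 members were called for long-term against short-term UPM, the same 5, and 0 in the other exposure comparisons over both tissues. Between the tissues the widest standard errors were those of Pcdhgb8 (0.74, mean of 10.2 counts), Cdh1 (0.63, 21.6 counts) and Cdh6 (0.49, 14.5 counts). Pcdhb13, with fewer counts than Cdh1 or Cdh6, had a narrower one (0.41, 10.9 counts). The part of depth in these errors was not tested.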
